A study of Mus musculus with 12 samples.

Results

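Chemokines and their receptors were described across brown and white adipose tissue of mice with 0, 1 or 2 copies of the Ucp1-CreEvdr transgene. Members were all genes of the count table whose symbol begins with Ccl, Cxcl, Xcl, Cx3cl, Ccr, Cxcr, Xcr, Cx3cr or Ackr followed by a digit. Among the 24541 genes of that table, symbols of 62 matched, and 59 remained after Ccl19, Ccl21a and Cxcl13 were left out, of which 36 were ligands and 23 receptors. The transgene places Cre recombinase under Ucp1 regulatory sequences, so that Cre is made in brown and beige adipocytes. Polyadenylated RNA was sequenced from interscapular brown adipose tissue and from inguinal white adipose tissue, taken from the posterior subcutaneous depot. The 3 genotypes were wild type, 1xUcp1-CreEvdr and 2xUcp1-CreEvdr, called wild type, 1 copy and 2 copies below, and they came from crosses of heterozygous carriers. All mice were 6 weeks old, were fed chow at room temperature and were killed in the morning with no other treatment. Each tissue and genotype had 2 libraries, 12 in all. Whether a group's 2 libraries stem from different animals is not stated, nor are sex and strain, and the p-values therefore reflect library-to-library spread that could be technical.

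Chemokines are small secreted proteins that bind receptors coupled to inhibitory G proteins and direct the movement of cells along their gradients. Inflammatory chemokines are made on demand and draw monocytes, neutrophils, eosinophils and effector lymphocytes into tissues, whereas homeostatic chemokines are made constantly and place lymphocytes and dendritic cells in lymphoid organs, skin and gut. Atypical receptors bind chemokines without G protein signalling and remove or transport them. In adipose tissue the best known axis is Ccl2 with its receptor Ccr2, through which monocytes enter fat and become macrophages.

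Several libraries carried RNA of other cells, and this moved with genotype. The 13 lymphocyte markers, led by Cd79a and Lck, summed to 5.95 to 15.6 CPM (counts scaled to library size, with TMM factors over all 12 libraries) in the 8 brown and white wild type libraries and to 2009 to 2386 CPM in the 4 white transgenic libraries. The 4 lymph node vessel and stroma markers, led by Glycam1, summed to 0.142 to 0.877 CPM in those 8 and to 1110 to 1415 CPM in the 4 white transgenic libraries. The 10 skeletal muscle markers summed to 3323 and 1316 CPM in brown wild type, to 1.82 to 2.86 CPM in the 4 brown transgenic libraries, and to 2138 CPM in white 1 copy replicate 1. White wild type replicate 1 had 1224 CPM of the 10 macrophage markers, against 654 CPM in replicate 2. Cre was at 0 counts in the 4 wild type libraries, at 606, 444, 3243 and 1770 counts in the 4 brown transgenic libraries, and at 83 and 0 counts (1 copy) and 0 and 0 counts (2 copies) in white. Library totals ran from 15679884 to 31814056 counts.

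Of the 59 members, 46 passed the filter on low counts when all 12 libraries were fitted, 46 in the white and 25 in the brown libraries. The 36 ligands and 23 receptors together made up 448 to 755.5 CPM in the 6 brown libraries and 666 to 1587 CPM in the 6 white libraries. Ccl26 was at 0 counts in all 12 libraries, and Ccl20, Ccl27b and Cxcl3 had 6, 11 and 3 counts in all. Ccl21b and Ccl21c, near-identical gene copies, had the same count in every library, 13 each in all, so that their reads cannot be assigned to 1 copy.

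**Figure D1:**
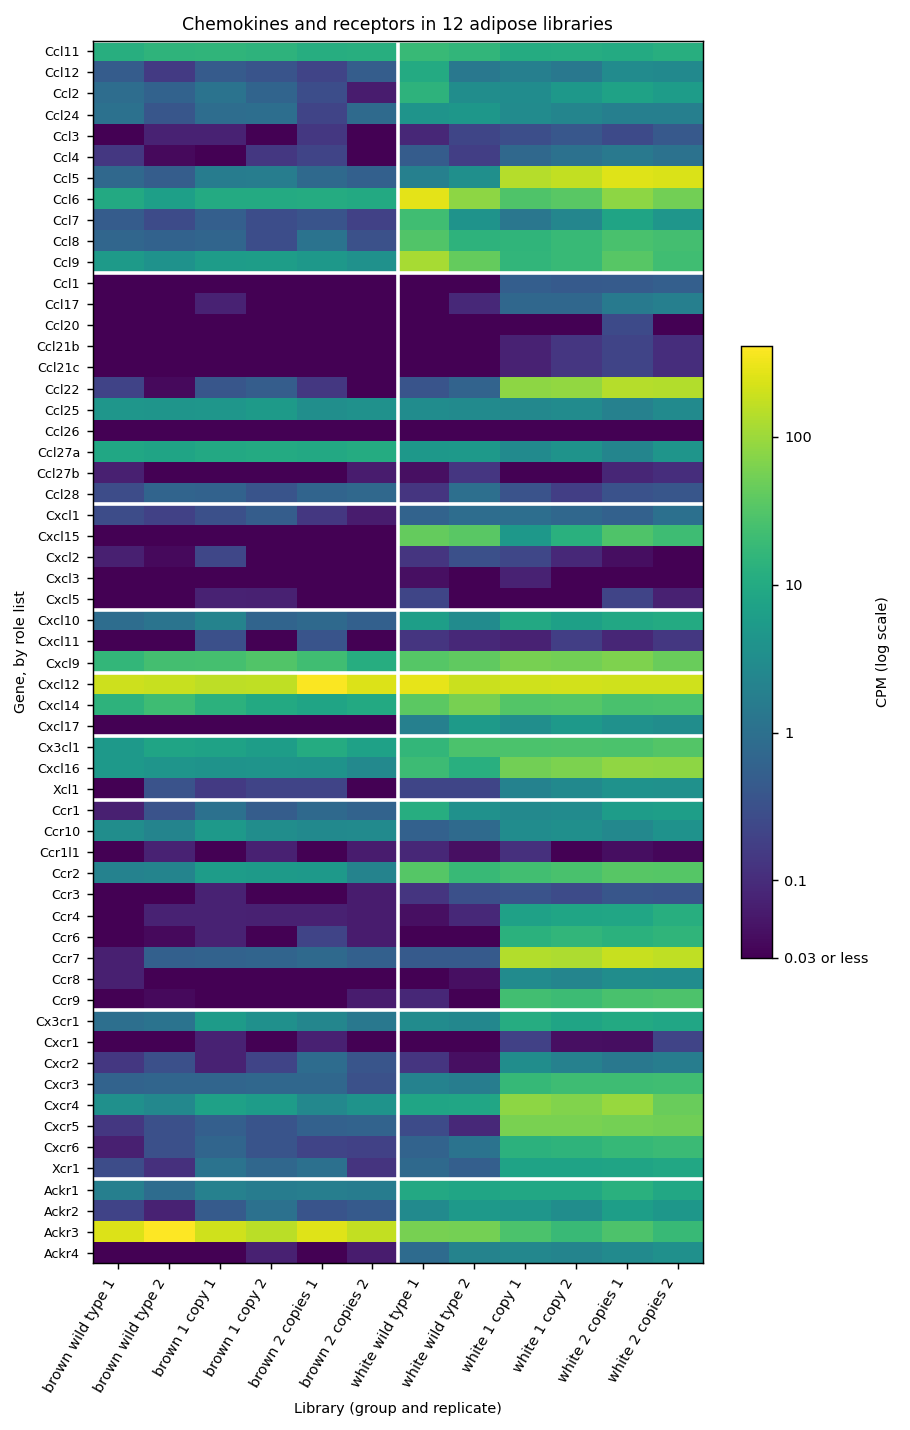
CPM of 58 members (rows, by role list) in the 12 libraries (columns, by group and replicate), on a log colour scale with values of 0.03 or less in the darkest colour. The white transgenic columns are bright for Ccr7, Ccl5 and Ccl22 and for most receptors. Most inflammatory CC ligands are brighter in white than in brown columns, but Ccl11 is not in the white transgenic ones.

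Levels per kilobase of exon allow genes to be compared with each other. In wild type brown adipose Ackr3, an atypical receptor that takes up Cxcl12, led the family with a level of 98.4 CPM per kb, followed by its ligand Cxcl12 at 23.2, the eosinophil attractant Ccl11 at 12.3 and Cxcl14 at 9.61 CPM per kb. In wild type white adipose the order was Ccl6 at 98.8 CPM per kb, Ccl8 at 44.0, Cxcl12 at 29.5, Ccl9 at 26.4 and Cxcl14 at 26.1. Ccl6 spanned 44.8 to 153 CPM per kb in its 2 white wild type libraries, so that its place above Ccl8, at 27.4 to 60.6, lay within their spread. In white adipose with 2 copies the highest levels were those of Ccl5 at 262 CPM per kb, Ccr7 at 87.6, Ccl22 at 59.98 and Ccl8 at 49.8. Ackr3 thus led in brown and macrophage-type CC ligands in white wild type adipose, while lymphoid genes led in the white transgenic libraries.

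The first comparison set brown against white adipose in wild type mice. Most chemokine genes that differed were lower in brown than in white adipose, among them 8 of the 10 inflammatory CC ligands tested and 3 of the 9 CC receptors tested, while the scavenging receptor Ackr3 was higher. Of the 46 members tested, 3 were higher and 27 lower in brown, or 65.2%. Calls were made by edgeR's quasi-likelihood test (adjusted p under 0.05, Benjamini-Hochberg over all genes tested). Of all genes tested, 61.1% passed, 29% higher and 32.1% lower. The median log2 fold change was -1.75 over the 46 members tested and -0.04 over all genes. The 10 macrophage markers were all lower in brown too, with sums of 187 and 129 CPM against 1224 and 654 CPM in white. In bulk tissue, fewer cells of a type and less RNA per cell cannot be told apart.

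Among the ligands, Ccl8 (a monocyte chemoattractant protein) stood at 0.692 and 0.604 CPM in brown and at 31.0 and 14.0 CPM in white, a log2 fold change of -5.12 ± 0.52 (SE; adjusted p = 3.22e-05). Its chromosome 11 neighbours Ccl7, Ccl12 and Ccl2, which attract monocytes as well, had log2 fold changes of -5.21 (adjusted p = 0.000897), -4.30 (adjusted p = 0.00327) and -3.58 (adjusted p = 0.00176). For all 4 the brown and white libraries did not overlap, a trait that was not counted over all genes. Ccl6 and Ccl9, rodent CC ligands of Ccr1 that myeloid cells make, differed by -4.47 ± 0.59 (adjusted p = 0.000354) and -4.17 ± 0.49 (adjusted p = 0.000114) on the log2 scale. White wild type replicate 1 was above replicate 2 for all 6 of these genes. Without it the log2 fold changes were -4.44 for Ccl8, -3.47 for Ccl7, -2.20 for Ccl12, -2.15 for Ccl2, -3.33 for Ccl6 and -3.27 for Ccl9, and all 6 still passed (largest adjusted p = 0.0166).

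Other ligands lower in brown included Ccl24, an eosinophil attractant (log2 fold change -2.72), Ccl5, a T cell and monocyte attractant (-2.17), Cxcl10, an interferon-induced ligand of Cxcr3 (-2.13), and Cxcl16, the membrane-bound ligand of Cxcr6 (-1.78). Cxcl14 (-1.43, adjusted p = 0.000728), Ccl22 (-2.24, adjusted p = 0.0127), the neutrophil attractant Cxcl1 (-1.72, adjusted p = 0.0213) and Cxcl9 (-0.86, adjusted p = 0.0292) were lower too. The last 3 lost their call in at least 2 of the fits that left out 1 library (largest adjusted p = 0.183 for Ccl22, 0.146 for Cxcl1 and 0.161 for Cxcl9). Cx3cl1, the membrane-bound ligand of Cx3cr1, was at 5.05 and 7.93 CPM in brown and 16.2 and 27.1 CPM in white (log2 fold change -1.72 ± 0.29, adjusted p = 0.000631). Cxcl15, a CXC ligand first described in mouse lung epithelium, was at 0 counts in every brown library and at 43.5 and 36.2 CPM in white wild type. This made it at least 544.5-fold lower in brown, with brown set at 3 counts over its 2 libraries (adjusted p = 0.000228). Cxcl17, a ligand of mucosal epithelium, was likewise at 0 counts in brown and at 1.93 and 5.39 CPM in white, at least 49.8-fold lower in brown (adjusted p = 0.000454). The 7 epithelial markers summed to 1.38 and 2.27 CPM in the same brown libraries and to 1417 and 1671 CPM in the white ones, and their part in these differences was not tested. Ccl11 (-0.35, adjusted p = 0.0682) and Cxcl12 did not pass. The only ligand higher in brown was Ccl27a, a keratinocyte ligand of Ccr10, at 8.78 and 7.78 CPM against 4.74 and 4.99 CPM (0.76 ± 0.28, adjusted p = 0.0341). That call was lost without any 1 of the 4 wild type libraries (adjusted p = 0.0640 to 0.116), and Ccl27a has a close copy, Ccl27b, that may share its reads.

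Among the receptors, Ccr2 was at 2.08 and 2.23 CPM in brown and at 33.9 and 18.1 CPM in white wild type (log2 fold change -3.59 ± 0.38, adjusted p = 4.00e-05). Ccr1, which binds inflammatory CC ligands on monocytes and T cells, was lower in brown as well (-4.96 ± 0.67, adjusted p = 0.000134). The lymphocyte receptors Cxcr6 (-1.98), Cxcr3 (-1.51) and Cxcr4 (-1.49) and the monocyte receptor Cx3cr1 (-1.35) were lower too. The call of Cxcr6 was lost without white wild type replicate 2 (-1.48, adjusted p = 0.0504) and that of Cxcr4 without brown wild type replicate 2 (-1.24, adjusted p = 0.0722). Of the 4 atypical receptors, 3 were lower in brown. Ackr1, the Duffy receptor of venules, had a log2 fold change of -2.77 ± 0.32 (adjusted p = 4.10e-05), and Ackr2, a scavenger of inflammatory CC ligands on lymphatic endothelium, one of -4.89 ± 0.58 (adjusted p = 5.27e-05). Ackr4, which scavenges homeostatic ligands, was at 0 counts in brown wild type and at least 19.9-fold lower there.

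Ackr3 (chromosome 1, 90203980 to 90216751, mm10) went the other way. It was at 249 and 409.8 CPM in brown wild type and at 57.5 and 56.5 CPM in white wild type, and the depots did not overlap. The log2 fold change was 2.53 ± 0.34 (adjusted p = 0.000266), and between 2.13 and 2.85 when 1 library was left out. Ccr10, the receptor of Ccl27a and Ccl28, was the other receptor higher in brown, at 3.25 and 2.19 CPM against 0.570 and 0.802 CPM (1.96 ± 0.37, adjusted p = 0.00117). Skeletal muscle markers were at 3323 and 1316 CPM in brown wild type and at 11.3 and 9.27 CPM in white wild type. The brown transgenic libraries held at most 2.86 CPM of them. The log2 fold change of Ackr3 between the depots was 2.96 ± 0.35 with 1 copy and 3.21 ± 0.36 with 2 copies. Ackr3 was at 153 to 259 CPM in the brown transgenic libraries and at 18.2 to 28.3 CPM in the white ones. Those fold changes thus include a white level below that of white wild type. The part of muscle RNA in these values was not tested.

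**Figure D2:**
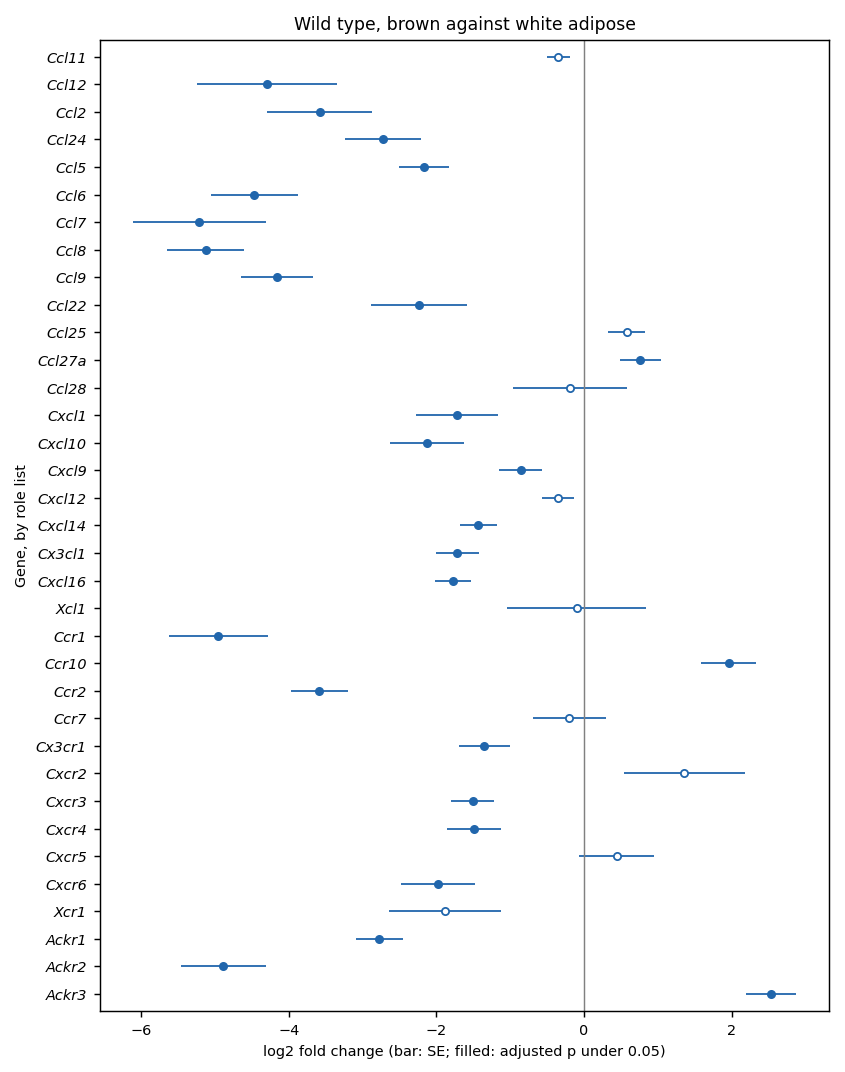
Log2 fold change (x axis, bars give the SE) of brown against white wild type adipose for 35 members (y axis, by role list) that passed the filter and had more than 3 counts in each depot. Filled points passed at an adjusted p of 0.05; filled points on the right are Ccl27a, Ccr10 and Ackr3, and all other filled points lie on the left.

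The comparison of transgenic with wild type white adipose gave large differences in both directions. Receptors of T cells, B cells and dendritic cells rose, along with the ligands Ccl5, Ccl22, Ccl17, Cxcl16 and Xcl1. Ccl9, Ccl11, Ccl24 and Ackr3 passed as lower with each copy number. The calls of Ccl24 with 1 copy and of Ccl9 with 2 copies were lost in 6 and 5 of the 6 fits that left out 1 white library. With 1 copy 20 of the 46 members tested rose and 7 fell, against 28.4% higher and 23.6% lower among all genes tested (52% in all). With 2 copies 21 rose and 5 fell, against 32.1% higher and 28.9% lower (61% in all). These members' share of calls in either direction, 58.7% and 56.5% of the 46 tested, was thus near that of all genes. Their median log2 fold changes were 0.50 and 0.57, against 0.01 over all genes in both comparisons. Of the 20 receptors tested 13 rose and 1 fell with each copy number. Of the 26 ligands tested 7 rose and 6 fell with 1 copy, and 8 rose and 4 fell with 2 copies. Both comparisons share the 2 wild type libraries. All 13 lymphocyte and all 4 lymph node vessel and stroma markers rose in both, and 4 of 6 dendritic cell markers did (sums of 20.5 and 24.0 CPM in white wild type and 78.6 to 105 CPM in the 4 transgenic libraries). Lymph node RNA and genotype cannot be told apart in these libraries.

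The receptors that rose most were near 0 in wild type. Ccr7, which brings naive T cells and dendritic cells into lymph nodes, was at 0.439 and 0.446 CPM in white wild type, at 136 and 129 CPM with 1 copy and at 181 and 165 CPM with 2 copies. The log2 fold changes were 8.21 ± 0.13 (adjusted p = 1.42e-06) and 8.60 ± 0.13 (adjusted p = 1.28e-06). Cxcr5, which guides B cells into follicles, went from 0.263 and 0.0891 CPM to 60.1 and 59.5 CPM with 1 copy and to 55.1 and 52.3 CPM with 2 copies (8.36 ± 0.23 and 8.21 ± 0.23, adjusted p = 3.66e-06 and 3.73e-06). For both genes every transgenic library lay far above both wild type libraries. The 4 transgenic libraries lay close together for Cxcr5, while both 2-copy libraries lay above both 1-copy libraries for Ccr7.

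Ccr6, a receptor of B cells and type 17 T cells, had 0 counts in white wild type and 13.1, 15.68, 13.3 and 15.0 CPM in the transgenic libraries. It was at least 215-fold higher with 1 copy and at least 214.5-fold higher with 2 copies, with wild type set at 3 counts over its 2 libraries. Ccr9, a gut-homing receptor, had 2 counts in wild type and 1075 and 1441 counts with 1 and 2 copies, a ratio of 494.5 (95% counting interval 137 to 4089) and 626 (173 to 5172). Ccr4, the receptor of Ccl17 and Ccl22, had 3 counts in wild type and ratios of 112 (38.1 to 547) and 152.3 (51.8 to 741). Ccr8, found on type 2 and regulatory T cells, had 1 count in wild type and ratios of 119.6 (21.1 to 4760) and 142 (25.1 to 5626). Such intervals cover counting error only. All 4 genes passed the test in both comparisons.

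The other receptors that passed rose by less. Cxcr4, the signalling receptor of Cxcl12, was at 8.20 and 8.42 CPM in wild type, at 82.5 and 68.4 CPM with 1 copy and at 92.6 and 46.4 CPM with 2 copies, log2 fold changes of 3.18 ± 0.36 (adjusted p = 0.00168) and 3.06 ± 0.36 (adjusted p = 0.00113). Cxcr6, a receptor of resident memory T and natural killer T cells, rose by 4.03 and 4.43 on the log2 scale. Cxcr3, the receptor of Cxcl9 and Cxcl10 on effector T cells, rose by 3.38 and 3.53. Xcr1, a marker of cross-presenting dendritic cells, rose from 0.789 and 0.535 CPM to 7.43 to 9.10 CPM (3.48 ± 0.24 and 3.67 ± 0.24). Cxcr2, best known from neutrophils, rose from 0.132 and 0.0446 CPM to 3.15 and 1.95 CPM and to 1.34 and 1.70 CPM (4.78 ± 0.56 and 4.03 ± 0.57), while the 6 neutrophil markers summed to 4.87 and 4.23 CPM in wild type and to 5.16 to 6.62 CPM in the transgenic libraries. Ccr10 (2.24 and 2.21) and Cx3cr1 (1.78 and 1.72) completed the 13 receptors that rose.

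**Figure D3:**
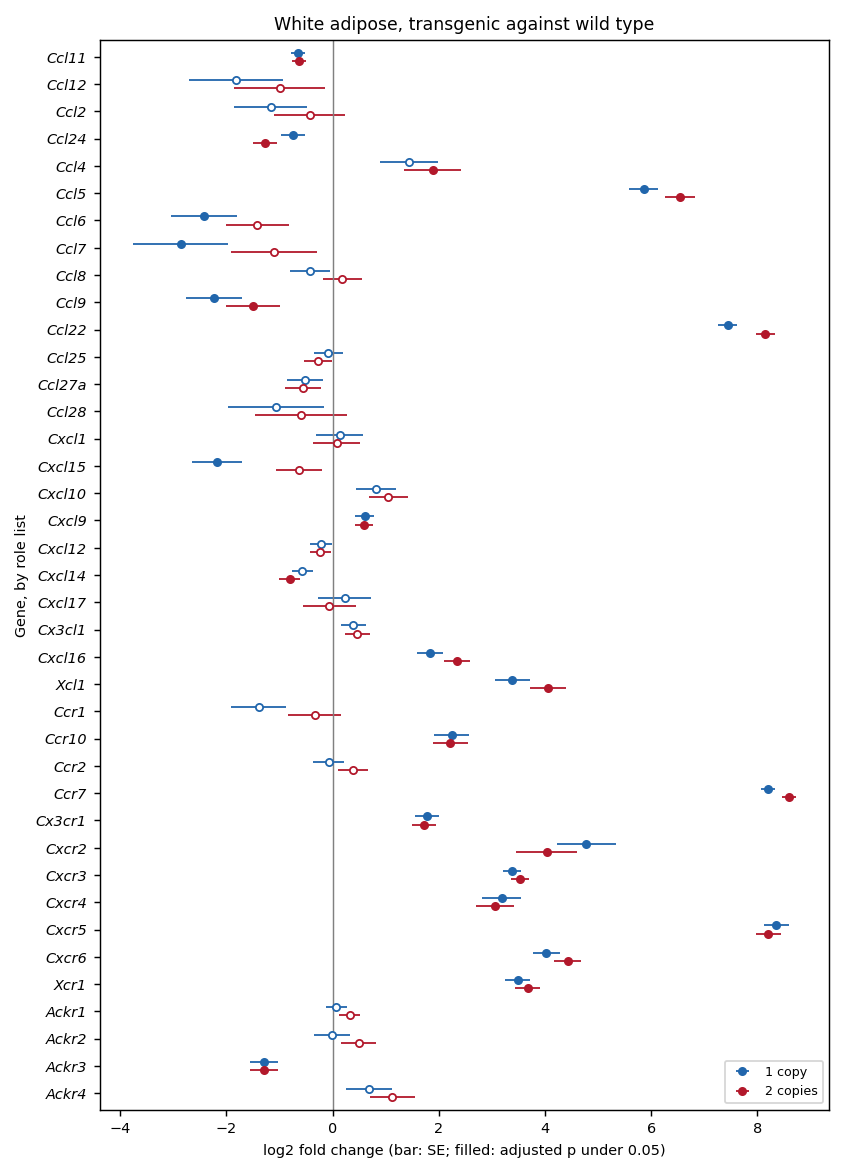
Log2 fold change (x axis, bars give the SE) of white adipose with 1 copy (blue) and 2 copies (red) against wild type for 39 members (y axis, by role list) that passed the filter and had more than 3 counts in every white group. Filled points passed at an adjusted p of 0.05; Ccr7 and Cxcr5 lie beyond 8 and the falling genes between about -3 and -0.6.

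Among the ligands Ccl5, made by activated T cells and natural killer cells, was at 1.89 and 3.48 CPM in white wild type, at 141.3 and 169.5 CPM with 1 copy and at 261 and 241 CPM with 2 copies. It rose by 5.86 ± 0.28 (adjusted p = 6.04e-05) and 6.55 ± 0.28 (adjusted p = 3.69e-05) on the log2 scale. Ccl22, a dendritic cell ligand of Ccr4, was at 0.351 and 0.624 CPM in wild type, at 82.5 and 88.6 CPM with 1 copy and at 142 and 137 CPM with 2 copies (7.44 ± 0.18 and 8.15 ± 0.18, adjusted p = 2.98e-06 and 2.18e-06). Ccl17, the other Ccr4 ligand, had 2 counts in wild type, against 35 counts (1 copy) and 87 counts (2 copies), ratios of 16.1 (95% counting interval 4.14 to 138.2) and 37.8 (10.2 to 317). Ccl1, a ligand of Ccr8, had 0 counts in wild type and 24 and 26 counts with 1 and 2 copies, at least 7.36-fold and 7.53-fold higher. Ccl17 and Ccl22 thus rose along with Ccr4, and Ccl1, at these low counts, along with Ccr8. Cxcl16 (1.84 and 2.34) and Xcl1, the ligand of Xcr1 (3.39 and 4.05), rose with their receptors as well. Cxcl9, an interferon-induced ligand of Cxcr3, rose by 0.60 in both comparisons (adjusted p = 0.0297 and 0.0260). These calls were lost in 4 (1 copy) and 3 (2 copies) of the 6 fits that left out 1 white library. Both were also lost when all 12 libraries were fitted together. Ccl4, an inflammatory CC ligand, passed with 2 copies only (1.89 ± 0.53, adjusted p = 0.0225).

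Ccl22 and Ccl17 lie next to each other on chromosome 8 with Cx3cl1 between them (94745590 to 94812036), and Cx3cl1 did not pass. Their promoters are shown because these neighbours rose together. The sequences run from 250 bases before to 50 bases after the RefSeq start site (GRCm38.p6, chr8:94745434-94745733 and chr8:94810203-94810502, plus strand). Capitals mark matches to the NF-kappa-B letters GGGNNTTCC or the same with 1 more T in the run of T, the STAT letters TTCNNNGAA, or the interferon response letters GAAA given 2 times with 2 bases between, on either strand.
Ccl22: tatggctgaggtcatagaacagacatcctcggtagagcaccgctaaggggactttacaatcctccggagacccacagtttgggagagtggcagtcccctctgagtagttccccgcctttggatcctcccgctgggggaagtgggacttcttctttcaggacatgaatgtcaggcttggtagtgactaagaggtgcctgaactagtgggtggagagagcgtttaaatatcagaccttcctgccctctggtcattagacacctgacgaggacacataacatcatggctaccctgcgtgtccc
Ccl17: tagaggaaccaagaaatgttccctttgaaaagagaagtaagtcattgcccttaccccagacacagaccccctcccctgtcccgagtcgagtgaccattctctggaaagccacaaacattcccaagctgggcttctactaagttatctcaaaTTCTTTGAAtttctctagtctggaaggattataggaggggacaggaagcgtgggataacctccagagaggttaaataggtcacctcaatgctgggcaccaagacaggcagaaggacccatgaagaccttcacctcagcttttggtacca
The Ccl17 window held 1 STAT match, 99 bases before the start site, and the Ccl22 window held no match to these letters. Among 32851 mouse promoters of this length 5.82% held GGGNNTTCC, 1.63% its longer form, 8.3% the STAT letters and 3.44% the interferon response letters. Among the 50 promoters listed for 43 members, 8, 6, 4 and 2 held them in that order.

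Of the 10 inflammatory CC ligands tested, 5 fell with 1 copy and 3 with 2 copies. Ccl6 was at 274 and 80.3 CPM in white wild type, at 30.04 and 36.5 CPM with 1 copy and at 80.0 and 53.1 CPM with 2 copies. With 1 copy both libraries lay below both wild type libraries (log2 fold change -2.42 ± 0.62, adjusted p = 0.0248). With 2 copies the highest library was level with the lower wild type library, and Ccl6 did not pass (-1.42, adjusted p = 0.0913). Ccl9 was at 118 and 43.3 CPM in wild type, at 15.9 and 18.5 CPM with 1 copy and at 35.0 and 22.2 CPM with 2 copies, and fell in both (-2.23 ± 0.52, adjusted p = 0.0179, and -1.50 ± 0.50, adjusted p = 0.0484). Ccl7 fell with 1 copy (22.5 and 3.97 CPM against 1.31 and 2.35 CPM, log2 fold change -2.86 ± 0.90, adjusted p = 0.0438). The eosinophil attractants Ccl24 (-0.75 and -1.27) and Ccl11 (-0.65 and -0.63) fell in both comparisons, and Cxcl14, a CXC ligand of epithelium and stroma, with 2 copies (-0.81 ± 0.19, adjusted p = 0.0139).

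White wild type replicate 1 bears on these falls. Without it Ccl6 and Ccl9 still fell with 1 copy (-1.27, adjusted p = 0.0284, and -1.33, adjusted p = 0.0245), while Ccl9 with 2 copies (-0.59, adjusted p = 0.161) and Ccl7 with 1 copy (-1.12, adjusted p = 0.123) did not pass. The call of Ccl24 with 1 copy was lost in each of the 6 fits that left out 1 white library (-0.93 to -0.59). That of Ccl9 with 2 copies was lost in 5 of these 6 fits. Without either library with 1 copy the falls of Ccl6, Ccl9 and Ccl7 with 1 copy were lost as well (adjusted p = 0.0708 to 0.176). The macrophage markers summed to 1224 and 654 CPM in wild type and to 722 to 808 CPM in the transgenic libraries. Of the 10 markers, 7 fell with 1 copy and 6 with 2 copies while 1 rose in each. The sum is weighted by Lyz2, at 325 and 186 CPM in wild type and 445 to 475 CPM in the transgenic libraries. The next highest marker, C1qa, was at 259 and 132 CPM in wild type and 88.4 to 115 CPM in the transgenic libraries. The part of macrophage RNA in the falls was not tested.

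Ccl6 and Ccl9 are neighbours on chromosome 11 in a run with Ccl5, Ccl3 and Ccl4 (83525778 to 83664683). Within this run Ccl5 rose, Ccl6 and Ccl9 fell with 1 copy and Ccl3, at 0.0877 to 0.425 CPM in white, was too low to be tested. Ccl4 passed as higher with 2 copies only, a call lost in 3 of the 6 fits that left out 1 white library. Their promoters are shown beside those above because these 2 neighbours moved opposite to Ccl5 (GRCm38.p6, chr11:83593038-83593337 and chr11:83578587-83578886, minus strand, same capitals).
Ccl6: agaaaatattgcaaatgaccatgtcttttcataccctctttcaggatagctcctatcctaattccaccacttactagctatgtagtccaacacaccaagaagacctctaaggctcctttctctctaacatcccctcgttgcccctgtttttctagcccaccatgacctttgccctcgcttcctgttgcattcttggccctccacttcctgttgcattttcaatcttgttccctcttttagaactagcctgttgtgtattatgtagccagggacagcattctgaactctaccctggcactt
Ccl9: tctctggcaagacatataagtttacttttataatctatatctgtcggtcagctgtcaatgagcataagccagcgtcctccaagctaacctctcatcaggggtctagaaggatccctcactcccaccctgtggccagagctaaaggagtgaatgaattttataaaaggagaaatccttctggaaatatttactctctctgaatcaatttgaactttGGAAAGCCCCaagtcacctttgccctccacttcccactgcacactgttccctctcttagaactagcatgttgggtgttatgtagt
The Ccl9 window held 1 stretch, 35 bases before the start site, that matched both NF-kappa-B forms, which overlap there on the opposite strand. The Ccl6 window held no match to these letters.

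Cxcl9 and Cxcl10, adjacent on chromosome 5 and both ligands of Cxcr3, are shown as neighbours of which only Cxcl9 passed, although its log2 fold changes of 0.60 were below those of Cxcl10 (0.81 and 1.05). Cxcl10 was at 6.31 and 2.94 CPM in white wild type, 9.49 and 6.80 CPM with 1 copy and 9.06 and 10.2 CPM with 2 copies, with no overlap between wild type and transgenic libraries (adjusted p = 0.118 and 0.0514). Their windows were chr5:92328030-92328329 and chr5:92348840-92349139 on the minus strand of GRCm38.p6.
Cxcl9: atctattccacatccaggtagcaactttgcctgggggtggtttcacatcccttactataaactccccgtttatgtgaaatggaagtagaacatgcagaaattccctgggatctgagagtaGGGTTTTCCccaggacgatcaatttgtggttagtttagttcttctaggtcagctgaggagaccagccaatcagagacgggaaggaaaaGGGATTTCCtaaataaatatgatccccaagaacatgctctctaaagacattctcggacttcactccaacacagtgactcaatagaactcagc
Cxcl10: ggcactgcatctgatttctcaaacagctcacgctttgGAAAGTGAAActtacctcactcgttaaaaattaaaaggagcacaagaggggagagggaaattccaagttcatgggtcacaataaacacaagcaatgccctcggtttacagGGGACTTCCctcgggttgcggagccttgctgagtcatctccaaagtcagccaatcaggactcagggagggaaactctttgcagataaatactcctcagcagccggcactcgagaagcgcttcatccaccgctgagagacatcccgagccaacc
The Cxcl9 window held GGGNNTTCC 130 and 42 bases before the start site. The Cxcl10 window held GGGNNTTCC 103 bases before it and the interferon response letters 213 bases before it. A match describes letters and is not evidence of binding.

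Ackr3 was the only receptor that fell in white adipose, from 57.5 and 56.5 CPM to 27.6 and 19.1 CPM with 1 copy and 28.3 and 18.2 CPM with 2 copies. The groups did not overlap, and the log2 fold changes were -1.29 ± 0.26 (adjusted p = 0.0108) and -1.30 ± 0.26 (adjusted p = 0.00805). Its ligand Cxcl12, at 293 and 190.0 CPM in wild type and 203 to 212 CPM in the transgenic libraries, did not pass. Adipocyte markers summed to 15450 and 15040 CPM in white wild type, 9256 and 7380 CPM with 1 copy and 4310 and 3231 CPM with 2 copies, and progenitor markers to 1088 and 1087 CPM against 524 to 632.5 CPM. Blood endothelial markers went from 868.5 and 847 CPM to 529 to 742.5 CPM. Their part in the fall of Ackr3 was not tested.

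Cxcl15 was at 43.5 and 36.2 CPM in white wild type, at 4.80 and 12.9 CPM with 1 copy and at 29.9 and 21.3 CPM with 2 copies. It fell with 1 copy (log2 fold change -2.18 ± 0.47, adjusted p = 0.0130), and 2 copies gave -0.64 and did not pass. The call with 1 copy was lost without either wild type library (adjusted p = 0.0856 and 0.0674), and the log2 fold change ran from -3.06 to -1.64 when 1 library was left out. The sum of the 7 epithelial markers, most of it from Krt8, Krt18 and Krt19, was lowest with 1 copy as well, at 1417 and 1671 CPM in wild type, 458 and 865 CPM with 1 copy and 1213 and 1227 CPM with 2 copies, and 3 of 7 fell with 1 copy and 0 of 7 with 2 copies. Krt5 did not share this order, at 7.85 and 12.7 CPM in wild type, 13.9 and 41.0 CPM with 1 copy and 12.9 and 52.0 CPM with 2 copies, and neither did Krt14. The part of epithelial RNA was not tested.

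Ccr2 and Ccr1, receptors of inflammatory CC ligands, did not pass in white adipose. Ccr2 was at 33.9 and 18.1 CPM in wild type and 23.3 to 34.5 CPM in the transgenic libraries, and the groups overlapped. Ccr1 was at 11.3 and 3.70 CPM in wild type, at 2.70 and 3.02 CPM with 1 copy, below both wild type libraries (log2 fold change -1.39, adjusted p = 0.0711), and at 5.70 and 6.16 CPM with 2 copies. The monocyte attractants Ccl2, Ccl8 and Ccl12, and Ackr1, Ackr2, Ackr4, Ccl25, Ccl27a, Ccl28, Cxcl1 and Cxcl17 did not pass either.

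Between 2 copies and 1 copy in white adipose, Ccl22 alone among the members passed, at 142 and 137 CPM against 82.5 and 88.6 CPM (log2 fold change 0.71 ± 0.11, adjusted p = 0.0470). Over all genes tested 1.86% passed, 0.0327% higher and 1.83% lower. At an unadjusted p under 0.05 there were 6 members, a threshold at which all genes were not counted. DESeq2 called 4 members (Ccl22, Ccl5, Ccr7 and Cxcl15), beside 1230 of the 13508 genes it tested. The call of Ccl22 was lost without any 1 of the 4 white transgenic libraries (adjusted p = 0.130 to 0.341). Ccl5 went from 141.3 and 169.5 CPM to 261 and 241 CPM and Ccr7 from 136 and 129 CPM to 181 and 165 CPM without passing in edgeR, although the libraries did not overlap. Lymphocyte markers summed to 2009 and 2023 CPM with 1 copy and 2128 and 2386 CPM with 2 copies, and 0 of 13 passed.

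**Figure D4:**
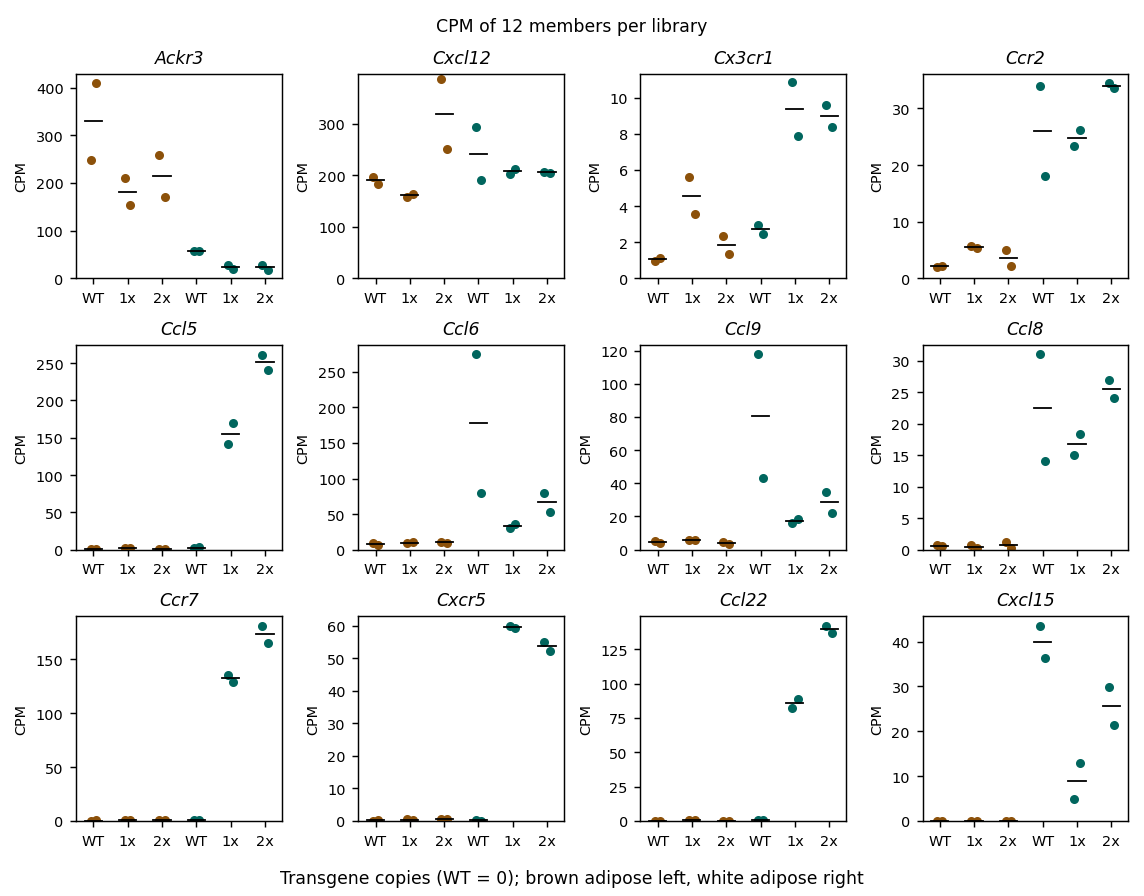
CPM per library (points) and group means (lines) of 12 members in brown (left 3 groups, brown points) and white adipose (right 3 groups, green points) with 0 (WT), 1 or 2 transgene copies; each panel has its own y axis from 0. Ccl5, Ccr7, Cxcr5 and Ccl22 are high in the 4 white transgenic libraries alone, Ackr3 is highest in brown, and Ccl6 and Ccl9 peak in 1 white wild type library.

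In brown adipose 25 of the 59 members had enough counts to be tested between genotypes. With 1 copy 1 of these 25, Cx3cr1, passed, which is 4% of them and near the share among all genes tested (4.07%, with 1.52% higher and 2.55% lower). Cx3cr1 (chromosome 9, 119901616 to 120069879), the receptor of Cx3cl1 on monocytes and macrophages, was at 0.968 and 1.13 CPM in wild type, 5.60 and 3.54 CPM with 1 copy and 2.36 and 1.38 CPM with 2 copies. Both libraries with 1 copy lay above the other 4 brown libraries, and the log2 fold change was 2.09 ± 0.40 (adjusted p = 0.0327). The call was lost without any 1 of the 2 wild type and 2 1-copy libraries (adjusted p = 0.0640 to 0.280). Macrophage markers summed to 187 and 129 CPM in wild type and 170 and 181 CPM with 1 copy, and 0 of 10 passed. At an unadjusted p under 0.05 there were 7 members with 1 copy. All genes were not counted at that threshold, so this number cannot be set against a share of all genes. Ccr2 was at 2.08 and 2.23 CPM in wild type and 5.75 and 5.32 CPM with 1 copy (log2 fold change 1.35, adjusted p = 0.105). Cxcr4 (1.10, adjusted p = 0.0874) and Ccl5 (1.46, adjusted p = 0.121) had log2 fold changes above 1 as well. Skeletal muscle markers were at 3323 and 1316 CPM in the wild type libraries and 1.82 and 2.197 CPM with 1 copy, and 7 of 10 fell. Their part in the value of Cx3cr1 was not tested.

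With 2 copies 0 of the 25 members tested passed in brown adipose by edgeR, where 1.29% of all genes did (0.47% higher, 0.82% lower). There were 3 at an unadjusted p under 0.05. DESeq2 called 2 members, Cxcl12 and Cxcl14, beside 683 of all 13414 genes. Compared with 1 copy, 0 passed by edgeR too, where 1.95% of all genes did (1.24% higher, 0.708% lower). There were 6 at an unadjusted p under 0.05. DESeq2 called 1 member, Cxcl12, beside 974 of all 13414 genes. All genes were not counted at the unadjusted threshold. Cxcl12, made by stromal cells and endothelium, was at 197 and 183 CPM in wild type, 158 and 163 CPM with 1 copy and 385 and 251 CPM with 2 copies. Both 2-copy libraries lay above the other 4, with log2 fold changes of 0.76 ± 0.19 against wild type (adjusted p = 0.114) and 1.00 ± 0.19 against 1 copy (adjusted p = 0.0565). Blood endothelial markers summed to 1527 and 1496 CPM with 2 copies and 1145 to 1390 CPM in the other 4 brown libraries. Ackr3 was at 249 and 409.8 CPM in wild type, 209.7 and 153 CPM with 1 copy and 259 and 171 CPM with 2 copies, and its log2 fold change with 1 copy was -0.87 (adjusted p = 0.239). Ccl2 was at 0.899 and 0.604 CPM in wild type and 0.285 and 0.0625 CPM with 2 copies (-2.07, adjusted p = 0.216). Ccr7 was at 0.0692 to 0.785 CPM and Cxcr5 at 0.138 to 0.625 CPM over the 6 brown libraries, whereas Ccr10, which rose in white as well, was at 2.19 to 4.99 CPM in brown.

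**Figure D5:**
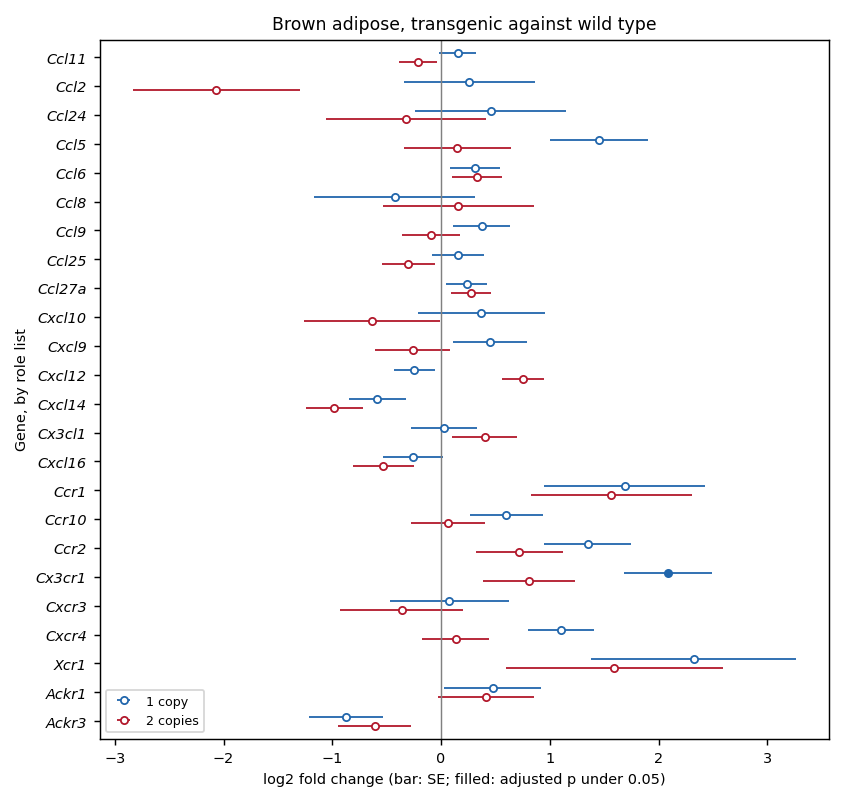
Log2 fold change (x axis, bars give the SE) of brown adipose with 1 copy (blue) and 2 copies (red) against wild type for 24 members (y axis, by role list) that passed the filter in brown. The filled point, Cx3cr1 with 1 copy, is the one value that passed at an adjusted p of 0.05.

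Brown and white adipose of the same transgenic genotype were compared as well. With 1 copy 4 of the 46 members tested were higher and 35 lower in brown, or 84.8%. Of all genes 70.1% passed, 29.4% higher and 40.6% lower. With 2 copies 3 were higher and 39 lower, or 91.3% of the 46. Of all genes 74.4% passed, 32.1% higher and 42.3% lower. In both comparisons the median of all genes was -0.24 on the log2 scale, and -0.13 and -0.14 under median-of-ratios scaling. Ackr3 and Ccl27a were higher in brown in both (Ccl27a 1.52 and 1.59). With 1 copy Ccl25, a ligand of Ccr9 (0.82, adjusted p = 0.0140), and Ccl11 (0.46, adjusted p = 0.0200) were higher in brown. These calls were lost in 2 and 3 of the 12 fits that left out 1 library (largest adjusted p = 0.0940 for Ccl25 and 0.104 for Ccl11). With 2 copies Cxcl12 was higher in brown (0.63 ± 0.22, adjusted p = 0.0237), a call lost in 3 of the 12 fits that left out 1 library. Those were the fits without brown 2 copies replicate 1 (log2 fold change 0.29) and without either white library with 2 copies. Ccr7 (-7.72 and -8.01), Cxcr5 (-7.07 and -6.47), Ccl5 (-6.52 and -8.54) and Cxcr3 (-4.81 and -5.41) were among the lowest in brown, beside lymphocyte markers of 8.94 to 14.4 CPM in brown and 2009 to 2386 CPM in white.

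The genotype difference itself was compared between the depots by an interaction term. For 1 copy 19 of the 46 members tested differed (41.3%), 14 of them with a lower fold change in brown than in white. Of all genes 32.6% passed, 13.8% higher and 18.8% lower. Under median-of-ratios scaling the median over all genes moved from 0.0093 to 0.148 on the log2 scale for 1 copy, and the split of all genes from 2150 higher and 2926 lower to 3068 higher and 2401 lower, with 6 members then higher and 14 lower. For 2 copies 15 of the 46 differed (32.6%), 14 of them lower. Of all genes 42.2% passed, 20.6% higher and 21.7% lower, so that the members' share lay below that of all genes. The same scaling moved the median over all genes from -0.032 to 0.088 for 2 copies and the split from 3199 higher and 3369 lower to 3815 higher and 2873 lower, and the counts of members called were the same, 1 higher and 14 lower. The interaction of Ccr7 was -7.52 ± 0.72 with 1 copy and -7.81 ± 0.72 with 2 copies, and that of Cxcr5 -7.51 ± 0.68 and -6.91 ± 0.66. Ccl6 (2.75, adjusted p = 0.0320) and Ccl9 (2.62, adjusted p = 0.0178) had positive interactions with 1 copy; both fell in white and did not pass in brown. Cxcl12 had one with 2 copies (0.98 ± 0.30, adjusted p = 0.0279). With each copy number the interaction call of Ccr7 was lost in 1 of the 12 fits that left out 1 library, and that of Cxcr5 in 0. The calls of Ccl6 and Ccl9 with 1 copy were lost in 6 and 4 of these fits, and that of Cxcl12 with 2 copies in 6. These tests use the same libraries as the comparisons within each depot and are not independent of them.

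Genes that act downstream of chemokine receptors were counted from a list of signalling and a list of desensitization, and factors of chemokine transcription from another. Of all genes tested in white adipose, 28.4% were higher and 23.6% lower with 1 copy, and 32.1% and 28.9% with 2 copies. Of 26 signalling genes, which carry the receptor signal to the cytoskeleton, 19 rose and 2 fell in white adipose with 1 copy, and 20 rose and 2 fell with 2 copies. The phospholipase gene Plcb2 rose from 3.12 ± 0.00 CPM (SD, n = 2) in wild type to 82.0 ± 2.96 and 99.7 ± 6.33 CPM (log2 fold changes 4.72 and 4.997). Of 10 genes of receptor desensitization 5 rose with each copy number, and 1 fell with 1 copy and 2 with 2 copies. Rgs1, a brake on G protein signalling in lymphocytes, rose from 0.354 ± 0.0665 to 13.9 ± 0.620 and 21.0 ± 0.495 CPM, and the receptor kinase gene Grk6 rose by 2.06 and 2.22 on the log2 scale. The kinase gene Grk5 fell with 2 copies (-1.34, adjusted p = 8.02e-05) and was lower with 2 copies than with 1 copy (-0.65, adjusted p = 0.0323).

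All 10 genes of the list of chemokine transcription, which includes NF-kappa-B subunits and inhibitors, Irf1 and Irf8, rose in white adipose with 1 copy and with 2 copies. Irf8, a factor of dendritic and B cells, rose from 13.5 ± 0.466 to 161 ± 4.53 and 180.2 ± 10.99 CPM, and Relb from 18.5 ± 1.65 to 79.4 ± 3.05 and 97.6 ± 7.78 CPM. The lists are widely expressed in lymphocytes and rose beside the lymphocyte markers given above. In brown adipose 0 of the 25 signalling and 0 of the 8 desensitization genes tested passed in any genotype comparison. Few of all genes passed there: 4.07% with 1 copy, 1.29% with 2 copies and 1.95% with 2 copies against 1 copy. From the transcription list Irf1 rose with 1 copy (0.65, adjusted p = 0.0344) and Rela fell (-0.61, adjusted p = 0.0214). In wild type mice 19 of the 26 signalling genes were lower and 3 higher in brown than in white adipose, where 32.1% of all genes were lower and 29% higher. The lower ones included Pik3cg (-2.93) and Dock2 (-2.98), which act in leukocyte migration.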

How the data were processed

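The authors deposited 1 table of raw read counts per gene symbol for 12 libraries, prepared with a stranded mRNA kit per the labels' protocols. STAR, featureCounts (Subread) and mm10 are named in the submitters' processing notes; versions, annotation and strand setting are not given in the sources used here, so sense and antisense reads may not be separated. Groups were taken from tissue and genotype in the labels, and replicates were numbered in sample order.

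Each tissue was fitted with its 6 libraries (3 residual degrees of freedom; 13414 genes in brown, 15287 in white), and depots and interactions with all 12 (6 residual degrees of freedom; 15559 genes), using edgeR 4.0.16 in R 4.3.3 (filterByExpr, TMM factors, robust quasi-likelihood test, two-sided, Benjamini-Hochberg over all genes, threshold 0.05). The common biological coefficient of variation was 0.148, 0.159 and 0.155. Factors ran from 0.976 to 1.04, 0.922 to 1.09 and 0.804 to 1.31. CPM values use the factors of the 12-library fit. Counts of the 2 libraries of a group differed by more than sampling noise (chi-square per degree of freedom 8.75 to 37.7). The scripts were tested on simulated data. Exon lengths and positions came from GENCODE M21 and promoters from RefSeq (GRCm38.p6), with motifs searched on both strands. Counting intervals are exact at 95%, and bounds set a group at 0 to 3 counts over its libraries; both cover counting error only.

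Members, lists and tests were chosen with earlier results of these data known. The rule was to describe members that passed in at least 1 comparison, up to 30 a comparison, and to give others by their values; the text orders them by role and names only some of those that passed between the depots of transgenic mice; 1 member enters the counts but is not reported here or drawn in the figures. Alternatives were median-of-ratios scaling, DESeq2 1.42.0, no filter, a minimum mean CPM of 1, fits without 1 library each, and fits on all 12 libraries or on 4.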

Additional observations from a re-analysis of the deposited data

Results flagged for a closer look

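The difference between transgenic and wild type libraries was tested between brown and white adipose by an interaction term in edgeR's quasi-likelihood test over all 12 libraries, and the members below passed at an adjusted p of 0.05. Values are the brown minus the white log2 fold change. The 4 white transgenic libraries carried 2009 to 2386 CPM of lymphocyte markers, against 5.95 to 15.6 CPM elsewhere, and their part in these differences was not tested.

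With 1 copy the receptors with a lower fold change in brown were Ccr7 (-7.52), Cxcr5 (-7.51), Cxcr2 (-5.44), Cxcr3 (-3.30), Cxcr6 (-2.79), Cxcr4 (-2.06) and Ccr10 (-1.64), and the ligands were Ccl22 (-5.35), Ccl5 (-4.36) and Cxcl16 (-2.08). For 4 receptors a group had at most 3 counts, so the adjusted p is given in place of a fold: 0.00934 for Ccr4, 0.0149 for Ccr6, 0.0199 for Ccr9 and 0.0479 for Ccr8. A higher fold change in brown was found for Ccr1 (3.08), Ccl6 (2.75), Ccl9 (2.62), Ackr2 (2.57) and Ccl11 (0.809).

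With 2 copies the fold change was lower in brown for Ccr7 (-7.81), Cxcr5 (-6.91), Ccl5 (-6.38), Cxcr6 (-4.52), Cxcr3 (-3.91), Cxcr4 (-2.91), Cxcl16 (-2.87) and Ccr10 (-2.15). The adjusted p was 0.000933 for Ccl22, 0.00444 for Ccr4, 0.0138 for Xcl1, 0.0171 for Ccr6, 0.0235 for Ccr9 and 0.0343 for Ccr8, where a group had at most 3 counts. Cxcl12 (0.977) was higher in brown. Of the 19 and 15 members, 4 and 7 kept their call in every fit that left out 1 library. Without brown wild type replicate 2, 10 and 8 members passed.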

How the results depend on the processing

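No paired analysis was possible because the labels give no replicate numbers, only library numbers that match no other library, with nothing that ties a depot to a mouse. Counts of called members under other settings (median-of-ratios scaling, DESeq2, no filter, a mean CPM of at least 1, another choice of libraries in the fit) ran from 25 to 30 for white with 1 copy, from 25 to 27 with 2 copies, from 30 to 31 for the wild type depots, from 36 to 42 and 37 to 42 for the depots with 1 and 2 copies, and from 18 to 23 and 15 to 17 for the 2 interactions. Leaving out 1 library gave 21 to 34, 21 to 34, 26 to 31, 31 to 42, 39 to 42, 10 to 23 and 8 to 18 in the same order, and both lowest interaction counts came without brown wild type replicate 2.

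In brown with 1 copy the count ran from 0 to 2 when a library was left out, and Ccr2 joined Cx3cr1 without either 2-copy library (adjusted p = 0.0447 and 0.0434). For brown 2 copies against wild type DESeq2 called 2 (Cxcl12 and Cxcl14), and leaving out a library gave 0 to 1. For brown 2 copies against 1 copy DESeq2, no filter and the fit of 12 libraries each called 1, Cxcl12, and leaving out a library gave 0 to 1. For white 2 copies against 1 copy DESeq2 called 4, and leaving out a library gave 0 to 4; without either wild type library Ccl22, Ccl5 and Ccr1 were among those that passed.

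Of the calls in white, 19 of 27 with 1 copy and 21 of 26 with 2 copies were kept in every fit that left out 1 library. Those lost in at least 1 were Ackr3, Cxcl15, Cxcl9, Ccl24, Ccl7, Ccl11, Ccl6 and Ccl9 with 1 copy, and Cxcl9, Ccl9, Ccl4, Ccl11 and Cxcl14 with 2 copies. With no filter the calls of Ccl7 and Ccl6 with 1 copy and of Ccl9 with 2 copies were lost, and in the fit of 12 libraries those of Cxcl9 and Ccl24 with 1 copy and of Cxcl9 and Ccl4 with 2 copies. Over 218 named results and all settings, 3018 values kept direction and call, 177 lost the call, 19 gained it and 2 changed sign. The sign changed for Ccl7 in white with 2 copies, whose log2 fold change ran from -1.87 to 0.65 when a library was left out (0.65 without white wild type replicate 1, adjusted p = 0.315). It also changed for the interaction of Xcl1 with 2 copies, which ran from -9.20 to 0.042 (the latter without brown wild type replicate 2, adjusted p = 0.804). The cause was not tested. Depth limits the members with few counts, and with 2 libraries a group a lone library left in a group was assumed to vary like the others.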
